A study of Mus musculus with 14 samples.

Results

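The interferon-stimulated gene families of the mouse were described by cell class in spinal cord from a mouse model of amyotrophic lateral sclerosis with and without the myeloid receptor gene Clec7a. The genes were chosen by symbol alone: the numbered Ifit, Ifi2, Oas, Gbp, Irgm and Slfn genes, Mx1 and Mx2, the Trim30 genes, and Isg15, Isg20, Rsad2, Usp18, Zbp1, Rtp4, Iigp1, Bst2, Ifih1, Ddx58, Xaf1 and Cmpk2, leaving out symbols with -ps. The annotation lists Gbp11, Oas1b and Mx2 as polymorphic pseudogenes and Slfn5os as antisense, and these stayed in. The rule gave 72 of the 55335 genes in the deposited tables. They comprised 12 Oas genes, 11 Ifi20x and Ifi21x genes, 11 Gbp genes, 9 Slfn genes, 6 Ifit genes, 4 Trim30 genes, 3 Ifi27-like genes, 3 genes of the Irgm group (Irgm1, Irgm2 and Iigp1), 2 Mx genes and 11 others.

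Spinal cords taken at postnatal age P115-120 were dissociated with enzymes and profiled by droplet single-cell RNA sequencing in 14 libraries. The labels gave 4 groups: nTg (3 libraries), with neither alteration, Clec7a-KO (4), with Clec7a deleted, SOD1G93A (3), with the mutant human SOD1 transgene that causes motor neuron disease, and SOD1G93A/Clec7a-KO (4), with both. The submitters describe the age as the middle of the disease and ask what Clec7a, a receptor of myeloid cells also called Dectin-1, does in it. The strain labels were nTg for the controls, B6.129S6-Clec7atm1Gdb/J for Clec7a-KO, B6SJL-Tg(SOD1*G93A)1Gur/J for SOD1G93A and a combined name for the last group, so that strain background and group cannot be told apart. The deletion is in every cell and not only in microglia. The labels do not say which libraries came from separate animals, so every p-value below measures the spread between libraries.

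Type I interferons bind the receptor made of Ifnar1 and Ifnar2, and signalling through the kinases Jak1 and Tyk2 then leads to binding of the interferon-stimulated response element in the promoters of these genes. Interferon gamma acts at another element, the gamma-activated site, and is the stronger inducer of many Gbp and Irgm genes. Microglia, the resident macrophages of the nervous system, respond to both, and endothelial cells of brain and cord keep many of these genes on at rest.

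The libraries held 108892 barcodes, 3096 to 12367 each, with 28819852 to 141204910 unique molecular identifiers (UMIs, counts of captured RNA molecules) per library. After removal of 7127 barcodes of low depth, 4963 with a high mitochondrial share and 7577 called doublets, 89225 cells remained. Clec7a had 755 to 1767 UMIs in the nTg libraries, 57449 to 101134 in SOD1G93A, 33 to 110 in Clec7a-KO and 74 to 240 in SOD1G93A/Clec7a-KO, which matches the Clec7a part of every label. Sod1 had 6719 to 23013 UMIs in nTg and 4195 to 13389 in Clec7a-KO. It had 184382 to 433164 in SOD1G93A and 98593 to 394468 in SOD1G93A/Clec7a-KO. Clusters were named from marker lists and gave 50314 microglia (960 to 7538 per library), 11711 endothelial cells, 7668 ependymal cells, 5758 astrocytes, 3917 oligodendrocyte precursors, 1752 mural cells, 1163 neurons, 710 T and NK cells, 576 border-associated macrophages and 2 smaller classes. The 12 microglia markers were all detected in microglia. Libraries shared at most 44 cell barcodes. Xist, a gene expressed in female cells, was above the Y-linked Ddx3y in nTg_1, nTg_3, Clec7a-KO_3 and SOD1G93A/Clec7a-KO_4. It was so in no SOD1G93A library, and this imbalance runs through every comparison of SOD1G93A with nTg. Microglia of the 4 libraries with the lowest running numbers in the labels, 1 to 4 (SOD1G93A_1, SOD1G93A/Clec7a-KO_1, SOD1G93A/Clec7a-KO_2 and Clec7a-KO_1), had 0.219 to 0.304 CPM (UMIs per 1000000 UMIs of the class in that library, with the totals adjusted by the TMM method) of Ifnb1, the interferon beta gene, against 4.38 to 78.9 in the 10 libraries numbered 5 to 16. No nTg library was among the 4.

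The families sit in clusters of related genes, and the deposited identifiers of 70 of the 72 genes were found in the GENCODE vM21 annotation of GRCm38. The 11 Ifi20x and Ifi21x genes lay side by side on chromosome 1 (173468485 to 174031810), the 6 Ifit genes on chromosome 19 (34550694 to 34650009) and the 9 Slfn genes on chromosome 11 (82942341 to 83286726). The Gbp genes formed 2 groups, 5 on chromosome 3 (142493978 to 142638008) and 6 on chromosome 5 (105014150 to 105346472), and the 12 Oas genes lay on chromosome 5 (114896936 to 120921652). The 4 Trim30 genes were on chromosome 7 (104355382 to 104507849). Usp18 was 8.22 Mb from Clec7a on chromosome 6. Neighbours within a family are similar in sequence, so counts of single members such as the Oas1 or Trim30 paralogs are uncertain where reads could have been split between them.

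RefSeq promoters (GRCm38.p6, 250 bases before to 50 after the start) were found for 52 of the 72 genes. The core of the interferon-stimulated response element was searched on both strands as GAAA, then any 2 bases, then GAAA (on the other strand TTTC, any 2 bases, TTTC). It was present in 34 of the 52 (65.4%, exact 95% interval 50.9 to 78.0) and in 1079 of all 27025 genes of the table (3.99%). The core of the gamma-activated site, TTCNNNGAA, was present in 9 of 52 (17.3%) and in 9.55% of all genes. The stretches below are shown because they hold the element in genes whose microglial levels are given afterwards; each is upstream of the start, 5′ to 3′ on the gene's strand, with the matched core, or overlapping cores, in capitals.
Isg15, chr4:156200850-156200921, minus strand: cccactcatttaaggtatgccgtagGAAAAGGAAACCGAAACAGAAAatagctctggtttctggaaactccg
Bst2, chr8:71537562-71537627, minus strand: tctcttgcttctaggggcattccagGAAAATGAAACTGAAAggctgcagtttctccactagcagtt
Ifit1, chr19:34640760-34640838, plus strand: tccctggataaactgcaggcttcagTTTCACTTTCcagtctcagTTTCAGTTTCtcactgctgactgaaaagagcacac
Ifit3, chr19:34583348-34583441, plus strand: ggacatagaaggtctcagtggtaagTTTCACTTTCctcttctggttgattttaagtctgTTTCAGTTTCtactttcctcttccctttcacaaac
Rsad2, chr12:26456538-26456597, minus strand: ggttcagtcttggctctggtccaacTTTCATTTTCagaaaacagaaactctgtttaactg
Oas1a, chr5:120907526-120907570, minus strand: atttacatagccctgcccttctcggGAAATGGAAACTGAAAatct
Gbp2, chr3:142620579-142620638, plus strand: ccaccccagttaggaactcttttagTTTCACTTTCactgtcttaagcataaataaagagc
Gbp5, chr3:142496744-142496803, plus strand: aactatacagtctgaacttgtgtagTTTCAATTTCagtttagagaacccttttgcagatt
Irgm1, chr11:48871421-48871475, minus strand: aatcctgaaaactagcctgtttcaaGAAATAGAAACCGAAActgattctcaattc

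In Isg15, 3 cores overlap into one run, and in Bst2, Oas1a and Irgm1 2 cores do. In Ifit1 and Ifit3 the 2 cores are apart. Rsad2, Gbp2 and Gbp5 have 1 core in this window. Among the genes whose SOD1G93A microglia were called higher (below), 21 of 29 with a promoter held the core, as did 9 of 12 that were tested and not called, 2 of 2 called lower and 2 of 9 with too few counts to test. As shares, these were 72.4% of the genes called higher and 75.0% of those not called.

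**Figure D1:**
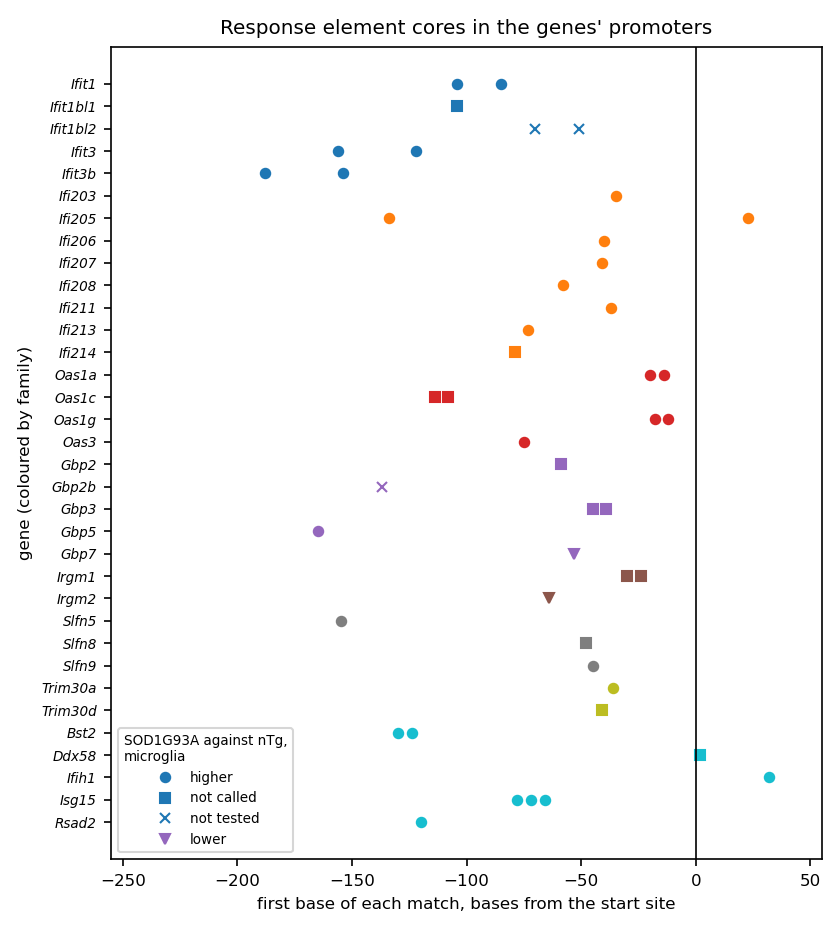
Position of the element core in the promoters that hold it. The horizontal axis is the distance from the annotated start in bases, each line is 1 gene, and points mark matches on either strand, coloured by family and shaped by the microglial call in SOD1G93A against nTg. Of the 52 genes examined, 34 hold at least 1 match.

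Many of these genes were at high levels in endothelial cells, whatever the group. Among the 6 classes with at least 20 cells in all 14 libraries, 40 of the 72 genes had their highest median over libraries in endothelial cells, 18 in microglia, 3 in oligodendrocyte precursors, 2 in ependymal cells and 2 in mural cells, and 7 had a median of 0 in each of them. These medians pool the groups and include genes near 0, such as Slfn4 at 0.123 CPM. No such count was made over all genes. For 47 genes tested in both classes, the median endothelial level was 479% of the microglial one in nTg and 292% in SOD1G93A. Some, such as Isg15 (97.4%) and Bst2 (79.8%), were below their microglial level in SOD1G93A. Slfn5, a Schlafen gene linked to control of cell growth and transcription, was at 370 to 896 CPM in the endothelial libraries, and Isg15, the ubiquitin-like modifier, at 178 to 374. The summed level of all 72 genes was 3148 to 4301 CPM in the 14 endothelial libraries and 951 to 1319 CPM in the microglia of the nTg libraries. Border-associated macrophages lay at 3134 to 6104 CPM, T and NK cells at 1953 to 5100, mural cells at 732 to 1964, oligodendrocyte precursors at 497 to 1599, astrocytes at 191 to 1383, ependymal cells at 213 to 821 and neurons at 71.4 to 688, each in libraries with at least 20 such cells. Classes were built from the expression of all genes, so these levels are a description and were not tested. Lowest were Oas1f with 0 UMIs, Oas1h with 1, Oas1e with 3, Oas1d with 5, Ifi27l2b with 6 and Gbp11 with 8 over the 4 classes tested below.

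The summed level was higher in the libraries with the transgene in microglia, and also in other classes. In oligodendrocyte precursors it was 497 to 542 CPM in nTg, 525 to 619 in Clec7a-KO, 997 to 1414 in SOD1G93A and 864 to 1599 in SOD1G93A/Clec7a-KO, and in mural cells 732 to 1026, 763 to 1019, 1244 to 1964 and 1328 to 1374. Microglia are given by library. In CPM they were at 1319, 951 and 1133 in the nTg libraries, 1288, 1226, 1069 and 976 in Clec7a-KO, 1450, 3062 and 3114 in SOD1G93A, and 1384, 2063, 2117 and 2590 in SOD1G93A/Clec7a-KO. Every library with the transgene was above every library without it, by little in SOD1G93A_1 and SOD1G93A/Clec7a-KO_1. These 2 libraries lay below their own group in most of the 57 genes tested below. SOD1G93A_1 was above its group's mean in 1 and SOD1G93A/Clec7a-KO_1 in 3. The same count was not made over all genes, so this is not read as a trait of these families.

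**Figure D2:**
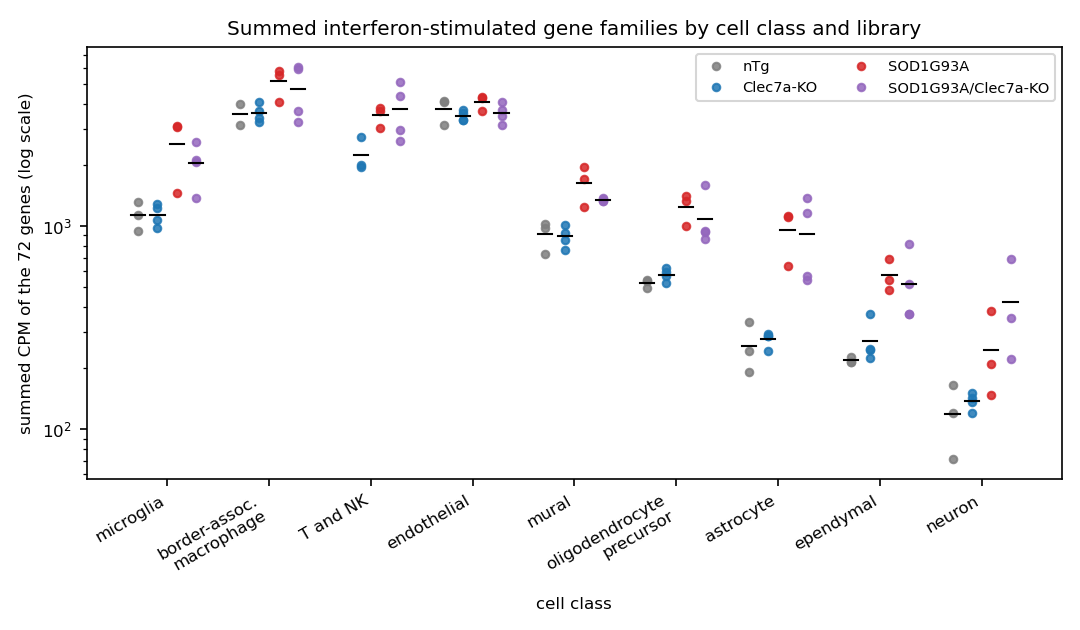
Summed level of the 72 genes by cell class and group, in CPM. Each point is 1 library with at least 20 cells of the class, the lines are group means, and the vertical axis is logarithmic. The 3 SOD1G93A libraries of microglia lie at 1450, 3062 and 3114, above the nTg libraries at 951 to 1319, while the endothelial libraries of all groups lie between 3148 and 4301.

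To compare SOD1G93A with nTg, UMI counts of the microglia were summed per library and tested across all 16475 genes with enough counts (edgeR quasi-likelihood test, Benjamini-Hochberg adjusted p under 0.05). In SOD1G93A microglia, 40 of the 57 genes tested were higher and 2 were lower (Gbp7 and Irgm2), with 15 of the 72 at counts too low to test. Of all genes tested, 19.9% were higher and 13.2% lower in this comparison. The median change of the 57 was 2.18 on the log2 scale, against 0.00414 over all genes. Members passed the filter on low counts in part through the group where they were high. By family, 7 of 8 Oas genes tested were higher (median log2 change 3.55), 8 of 10 Ifi20x and Ifi21x genes (3.15), 4 of 5 Ifit genes (2.90), both Ifi27-like genes tested (1.95), 4 of 5 Slfn genes (1.59), 1 of 2 Mx genes and 10 of the 11 single genes (2.18). Of 7 Gbp genes 2 were higher and 1 lower (median 0.56). Of 3 in the Irgm group 1 was higher and 1 lower (0.61), and of 4 Trim30 genes 1 was higher (-0.16). Differences between families were not tested.

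**Figure D3:**
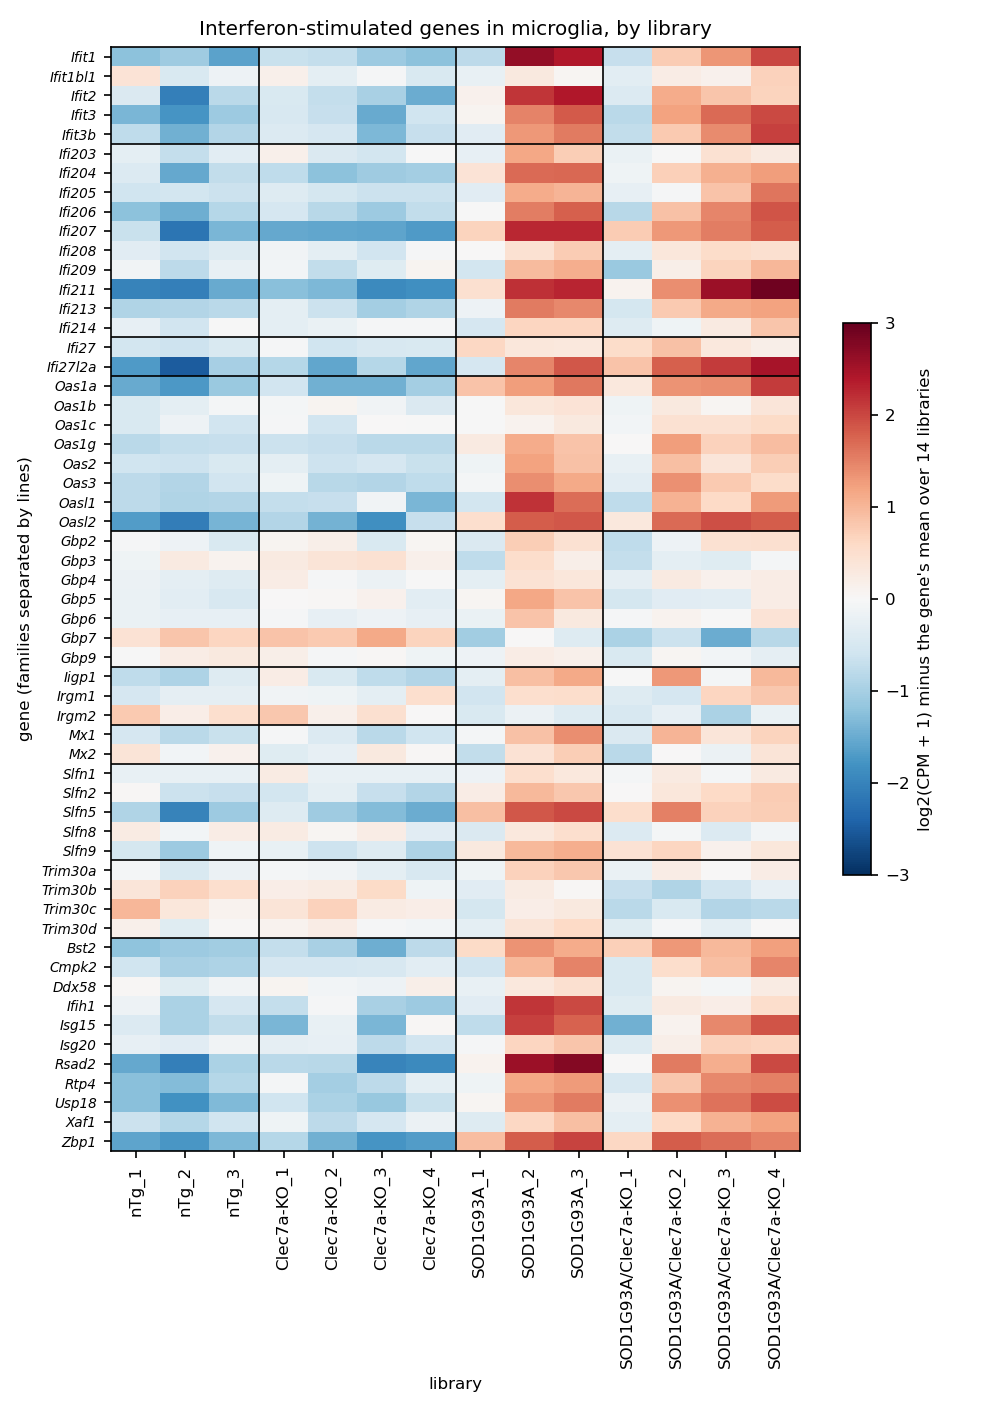
Microglial levels of the 57 genes tested in the 14 libraries, as log2(CPM + 1) minus each gene's mean over the libraries, with genes ordered by family and libraries by group. Red marks higher and blue lower levels. The columns SOD1G93A_1 and SOD1G93A/Clec7a-KO_1 are paler than the rest of their groups, and Gbp7 and Irgm2 are red in most libraries without the transgene.

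Bst2, or tetherin, which holds budding viruses at the cell surface, was at 95.2, 105 and 108 CPM in the nTg libraries and at 333, 573 and 484 in SOD1G93A, a log2 change of 2.18 (SE 0.24, adjusted p = 1.3e-05). Zbp1, a sensor of Z-form nucleic acids, was at 1.98, 1.66 and 2.50 CPM in nTg and at 15.9, 30.0 and 35.2 in SOD1G93A (log2 change 3.74, SE 0.41, adjusted p = 1.4e-05). In neither gene did the groups overlap. Isg15 was at 79.6, 54.3 and 63.7 CPM in nTg and at 62.1, 444 and 364 in SOD1G93A (log2 change 2.14, SE 0.75, adjusted p = 0.0413). Here SOD1G93A_1 lay within the nTg range, and the call was lost without any 1 of nTg_1, nTg_2, nTg_3, SOD1G93A_2, SOD1G93A_3 or SOD1G93A/Clec7a-KO_3 (adjusted p 0.0518 to 0.140). It was also lost with a term for Xist above Ddx3y.

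Rsad2, or viperin, an enzyme that makes a chain-terminating nucleotide, was at 1.76, 0.942 and 3.13 CPM in nTg and at 7.62, 46.6 and 53.4 in SOD1G93A (log2 change 4.26, SE 0.76, adjusted p = 0.000753). Usp18, which removes Isg15 from proteins and dampens the interferon receptor, was at 3.54, 2.11 and 3.36 CPM in nTg and at 10.4, 26.3 and 31.4 in SOD1G93A (log2 change 2.91, SE 0.51). Both were separate between the groups, with SOD1G93A_1 lowest of its group. Rtp4, a chaperone of receptors, was at 5.33, 5.10 and 7.35 CPM in nTg and at 12.7, 32.5 and 35.8 in SOD1G93A (log2 change 2.20, SE 0.49). Ifih1, a helicase that senses double-stranded RNA, was at 32.6, 18.2 and 25.2 CPM in nTg and at 28.3, 161 and 144 in SOD1G93A (log2 change 2.13, SE 0.49, adjusted p = 0.00422), again with SOD1G93A_1 inside the nTg range. Ddx58, the related sensor RIG-I, was not called (0.37, adjusted p = 0.181). Xaf1, a protein linked to apoptosis, rose by 1.22 (SE 0.36) and Isg20, an RNA exonuclease, by 0.84 (SE 0.30, adjusted p = 0.0427). The Xaf1 call was lost without nTg_2, SOD1G93A_2 or SOD1G93A_3 (adjusted p 0.0554 to 0.0820). That of Isg20 was lost without any 1 of the 3 nTg libraries, SOD1G93A_2, SOD1G93A_3, or SOD1G93A/Clec7a-KO_2, _3 or _4 (0.0538 to 0.154). It was also lost with a term for Xist above Ddx3y, and when the totals were adjusted by the RLE method in place of TMM.

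The Ifit proteins bind foreign RNA ends. Ifit2 was at 9.34, 2.38 and 6.95 CPM in nTg and at 14.3, 60.9 and 72.5 in SOD1G93A (log2 change 2.97, SE 0.59, adjusted p = 0.00163). Ifit3 was at 5.96, 4.32 and 7.58 CPM in nTg and at 18.2, 49.9 and 64.0 in SOD1G93A (log2 change 2.90, SE 0.61). Ifit1 was at 2.01, 2.38 and 1.33 CPM in nTg and at 3.13, 42.9 and 36.2 in SOD1G93A (log2 change 3.82, SE 0.83). In these, all 3 SOD1G93A libraries were above all 3 nTg libraries. The oligoadenylate synthetases make short oligoadenylates when they bind double-stranded RNA. Oas1a was at 1.69, 1.33 and 2.58 CPM in nTg and at 13, 17.3 and 22.2 in SOD1G93A (log2 change 3.26, SE 0.45, adjusted p = 0.000112). Oasl2 was at 2.10, 1.39 and 2.81 CPM in nTg and at 13.1, 34.2 and 35.5 in SOD1G93A (log2 change 3.74, SE 0.52). The 3 SOD1G93A libraries were again above all nTg libraries. Oas1g had 2 UMIs over the nTg microglia and 466 over SOD1G93A, a ratio of 48.8 (95% counting interval 13.4 to 404).

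The Ifi20x and Ifi21x genes encode DNA-binding proteins, some of them sensors of DNA in the cell. Ifi204 was at 46.7, 20.7 and 37.1 CPM in nTg and at 83.1, 204 and 209 in SOD1G93A (log2 change 2.24, SE 0.39, adjusted p = 0.000617). Ifi207 was at 26.2, 8.42 and 15.8 CPM in nTg and at 67.7, 207 and 207 in SOD1G93A (log2 change 3.25, SE 0.44, adjusted p = 8.9e-05). Ifi211 was at 0.439, 0.388 and 1.02 CPM in nTg and at 6.98, 25 and 26.9 in SOD1G93A (log2 change 5.11, SE 0.82). All 3 genes were separate between the groups. Ifi205 had 2 UMIs over nTg and 380 over SOD1G93A, a ratio of 39.8 (counting interval 10.9 to 330). Of the Ifi27-like genes, which encode small membrane proteins, Ifi27l2a was at 31.5, 17.6 and 51.7 CPM in nTg and at 73.2, 289 and 385 in SOD1G93A (log2 change 2.90, SE 0.56, adjusted p = 0.00129). Ifi27 was at 61.3, 58.1 and 65.5 CPM in nTg and at 139, 116 and 113 in SOD1G93A (0.99, SE 0.19). Of the 3 SOD1G93A libraries SOD1G93A_1 was the highest for Ifi27 and the lowest for Ifi27l2a.

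The Gbp and Irgm genes encode GTPases that act on membranes around intracellular pathogens, and they did not move together in microglia. Gbp5 was at 21.5, 19.8 and 17.7 CPM in nTg and at 26.0, 57.5 and 46.3 in SOD1G93A (log2 change 1.14, SE 0.25, adjusted p = 0.00347). Gbp7 was at 29.3, 38.8 and 33.6 CPM in nTg and at 9.77, 21.5 and 16 in SOD1G93A, so that it fell by 1.10 (SE 0.26, adjusted p = 0.00528). Irgm2 was at 19.1, 12.4 and 15.4 CPM in nTg and at 7.44, 9.25 and 7.89 in SOD1G93A and fell by 0.93 (SE 0.25, adjusted p = 0.0109). In each of the 3 the groups did not overlap. The Irgm2 call was lost without nTg_1 (adjusted p = 0.0594) and with a term for Xist above Ddx3y. Gbp2 was at 18.8, 17.4 and 13.9 CPM in nTg and at 14.1, 32.9 and 27.0 in SOD1G93A and was not called (0.56, adjusted p = 0.214), nor was Irgm1, at 15.5, 18.5 and 18.4 CPM in nTg and at 14.7, 32.4 and 32.7 in SOD1G93A (0.61, adjusted p = 0.222). Gbp6 had 1 UMI over nTg and 135 over SOD1G93A, a ratio of 28.3 with a counting interval of 4.99 to 1124.

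Of the Mx GTPases, which trap viral nucleoproteins, Mx1 was at 3.79, 2.88 and 3.28 CPM in nTg and at 5.57, 11.6 and 17.0 in SOD1G93A (log2 change 1.77, SE 0.42, adjusted p = 0.0053), while Mx2 was not called (0.12). Slfn5 was at 13, 5.54 and 11.3 CPM in nTg and at 48.1, 95.1 and 103 in SOD1G93A (log2 change 3.04, SE 0.41, adjusted p = 7.9e-05). Slfn2, known for keeping T cells quiescent, was at 259, 161 and 156 CPM in nTg and at 292, 494 and 438 in SOD1G93A (log2 change 1.09, SE 0.26). These 3 called genes were separate between the groups. Slfn1 had no UMI in the nTg microglia and 90 in SOD1G93A, at least 6.28-fold higher against a floor of 3 UMIs over the group (the 95% counting interval of the ratio begins at 5.00), and its call was lost with the replicate block and without any 1 of the 3 nTg libraries, SOD1G93A_3 or SOD1G93A/Clec7a-KO_4 (adjusted p 0.0533 to 0.132). It had enough counts to test in only 9 of the fits that left out 1 library, and these 5 losses are among them. With a term for Xist above Ddx3y the Slfn1 call was lost too. Trim30a, a ubiquitin ligase that restrains signalling from Toll-like receptors, was at 88.7, 67.8 and 82.4 CPM in nTg and at 85.6, 152 and 163 in SOD1G93A (log2 change 0.74, SE 0.22, adjusted p = 0.0163), with SOD1G93A_1 inside the nTg range. That call was lost without nTg_2, SOD1G93A_2 or SOD1G93A_3 (adjusted p 0.0649 to 0.0752). Trim30d was not called (0.33).

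The same comparison without Clec7a, SOD1G93A/Clec7a-KO against Clec7a-KO, shares no library with the first. In these microglia 32 of the 57 genes tested were higher and 5 were lower (Gbp7, Irgm2, Gbp3, Trim30b and Trim30c), where 25.7% of all genes were higher and 21% lower. The median change was 1.15, against 0.00495 over all genes. Of the genes higher with Clec7a, 31 of 40 were also higher without it, which is 31 of the 32 in the second list. How many of all genes were called higher in both comparisons is not given here. The overlap is therefore not read as a trait of these families. The genes called higher only in the first comparison were Gbp5, Gbp6, Ifi203, Ifi208, Ifih1, Isg15, Oas1b, Slfn1 and Trim30a, and Oas1c was called higher only in the second. Gbp7 and Irgm2 were lower in both, Gbp3, Trim30b and Trim30c were called lower only without Clec7a, and 11 genes were called in neither. A call in 1 comparison only is no test of a difference between them.

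**Figure D4:**
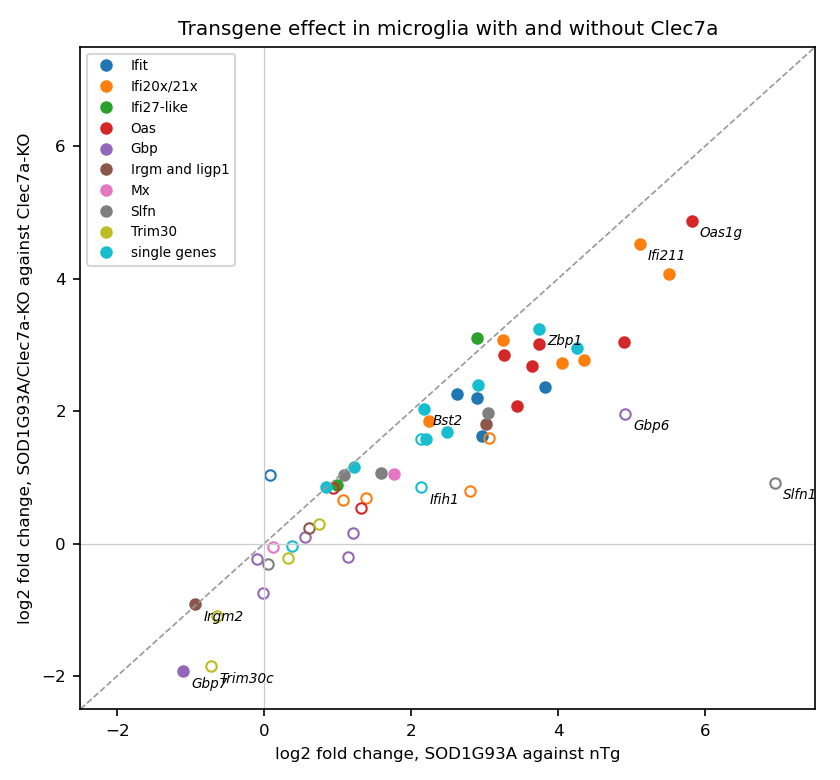
Change with the transgene in microglia that have Clec7a (horizontal axis, SOD1G93A against nTg) and that lack it (vertical axis, SOD1G93A/Clec7a-KO against Clec7a-KO), in log2 units, 1 point for each of the 57 genes tested. Colours are families, filled points are genes called in both comparisons, and the diagonal marks equal change. The median is 2.18 on the horizontal and 1.15 on the vertical axis, and Gbp7 and Irgm2 lie below 0 on both.

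By family, the second comparison called 7 of 8 Oas genes higher (median 2.76), 6 of 10 Ifi20x and Ifi21x genes (2.29), 4 of 5 Ifit genes (2.20), both Ifi27-like genes, 3 of 5 Slfn genes (1.04), 1 of 2 Mx genes and 8 of 11 single genes (1.58). It called no Gbp gene higher and 2 lower (median -0.21), and no Trim30 gene higher and 2 lower (-0.66). Bst2 was at 136, 113, 80.1 and 128 CPM in Clec7a-KO and at 366, 550, 440 and 524 in SOD1G93A/Clec7a-KO (log2 change 2.04, SE 0.21, adjusted p = 3.3e-06). Zbp1 was at 3.92, 2.27, 1.61 and 1.77 CPM in Clec7a-KO and at 12.5, 30.2, 27.3 and 24.2 in SOD1G93A/Clec7a-KO (3.25, SE 0.35). Neither gene's groups overlapped. Isg15, at 40.4, 91.2, 40.7 and 108 CPM against 38.2, 114, 289 and 394, did overlap and was not called (1.57, SE 0.64, adjusted p = 0.0564).

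Ifit2 was at 9.12, 7.49, 6.11 and 3.92 CPM in Clec7a-KO and at 9.55, 29.2, 23.7 and 21.1 in SOD1G93A/Clec7a-KO (log2 change 1.63, SE 0.49, adjusted p = 0.0146). The call was lost without SOD1G93A/Clec7a-KO_2 (adjusted p = 0.0506). Rsad2 was at 3.56, 3.55, 1.03 and 1.15 CPM against 7.07, 22.7, 16.1 and 30.6 (2.95, SE 0.62), and Oasl2 was at 4.41, 2.70, 1.80 and 5.23 CPM against 11.4, 31.5, 37.0 and 34.4 (3.02, SE 0.43). Both were separate, with SOD1G93A/Clec7a-KO_1 the lowest library of its group. Slfn5 was at 19.2, 11.6, 9.72 and 8.38 CPM against 36.7, 74.0, 41.2 and 42.7 (1.98, SE 0.34). Mx1 was at 5.62, 4.17, 2.90 and 3.54 CPM against 4.07, 12.8, 7.71 and 9.76 (1.06, SE 0.36, adjusted p = 0.0263). Its groups overlapped, and its call was lost without any 1 of Clec7a-KO_2, _3 or _4 or SOD1G93A/Clec7a-KO_2 or _4 (adjusted p 0.0537 to 0.118). Isg20 was called at 0.86 (SE 0.26) and lost without SOD1G93A/Clec7a-KO_3 or _4 (0.0572 to 0.0753).

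Among the genes that fell, Gbp7 was at 39.4, 37.7, 48.1 and 34.5 CPM in Clec7a-KO and at 10.5, 13.2, 6.94 and 11.5 in SOD1G93A/Clec7a-KO, a fall of 1.93 on the log2 scale with SE 0.23 (adjusted p = 1.7e-05). Trim30c was at 2.86, 3.77, 2.51 and 2.38 CPM against 0.699, 1.16, 0.615 and 0.693, and fell by 1.85 (SE 0.35, adjusted p = 0.000616). Trim30b fell by 1.10 (SE 0.24) and Irgm2 by 0.92 (SE 0.22). In all 4 every library with the transgene was below every library without it.

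The direct test of Clec7a in microglia with the transgene, SOD1G93A/Clec7a-KO against SOD1G93A, called none of the 57 genes, and 0.0182% of all genes. The lowest adjusted p was 0.424, the median change -0.32, and 9 genes had an unadjusted p under 0.05, as did 1874 of all 16475 genes. DESeq2 called 1, Gbp5, lower, and 17 of all 16475 genes. Gbp5 was at 17.2, 19.4, 19.9 and 29.3 CPM in SOD1G93A/Clec7a-KO, against 26.0, 57.5 and 46.3 in SOD1G93A (log2 change -1.02, SE 0.23). Ifih1 was at 27.6, 43.9, 41.8 and 52.0 CPM against 28.3, 161 and 144 (-1.43, SE 0.44, adjusted p = 0.436). In both genes SOD1G93A_1 was within the range of the other group, and without that library edgeR called both lower, Gbp5 by -1.29 (adjusted p = 0.0237) and Ifih1 by -1.90 (adjusted p = 0.0351). Without the transgene, Clec7a-KO against nTg, none of the 57 was called by either tool, where 0.0303% of all genes were (median change 0.34, none with an unadjusted p under 0.05). At that unadjusted level were 424 of all 16475 genes. The difference between both transgene effects, tested as an interaction, was called for none of the 57 by either tool and for 0.0% of all genes (median -0.62, 3 with an unadjusted p under 0.05). Here 324 of all 16475 genes were at that unadjusted level.

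That comparison depended on the libraries numbered 1 to 4. In an alternative added after the data were seen, only the 10 libraries numbered 5 to 16 entered the fit (3 nTg, 3 Clec7a-KO, 2 SOD1G93A and 2 SOD1G93A/Clec7a-KO). It called 7 of 56 genes lower in SOD1G93A/Clec7a-KO than in SOD1G93A and none higher, where 4.59% of all genes were lower. They were Trim30c (log2 change -1.96, SE 0.42), Ifih1 (-1.72, SE 0.36), Ifit2 (-1.58, SE 0.43), Slfn5 (-1.25, SE 0.30), Gbp5 (-1.09, SE 0.22), Gbp7 (-1.06, SE 0.25) and Trim30a (-0.66, SE 0.18), with adjusted p between 0.0398 and 0.048. Ifnb1 was lower in the same fit (-1.37, SE 0.30, adjusted p = 0.0398): among these libraries it was at 78.9 and 72 CPM in SOD1G93A and at 19.6 and 39.8 in SOD1G93A/Clec7a-KO. The cut at number 4 also parts the libraries by their Ifnb1 level (above), so this fit is no independent test of Ifnb1. The interaction again called none. With all 14 libraries and a term for numbers 1 to 4, no gene was called in either test. Ifnb1 was not called in the first of them either (-1.19, SE 0.38, adjusted p = 0.23). Of the libraries numbered 1 to 4, 1 was SOD1G93A, 2 were SOD1G93A/Clec7a-KO and 1 was Clec7a-KO, no fit was made of these alone, and the labels do not say what the numbers stand for. The 2 comparisons of the transgene kept their direction: without libraries 1 to 4 they called 45 genes higher and 2 lower with Clec7a, and 40 higher and 5 lower without it, where the median change went from 1.15 to 1.94. The shares of all genes called in these 2 comparisons without libraries 1 to 4 are not given here.

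Single microglia were compared after each cell was thinned to 2000 UMIs. The share of microglia with at least 5 UMIs from the 72 genes was 6.43 to 13.3% in the nTg libraries, 6.67 to 11.9% in Clec7a-KO, 17.6, 52.1 and 47.5% in SOD1G93A, and 16.2, 31.3, 28.9 and 40.4% in SOD1G93A/Clec7a-KO. All libraries with the transgene were above all without it, and SOD1G93A_1 and SOD1G93A/Clec7a-KO_1 were again the lowest of their groups. Before thinning, when cells also differed in depth, the group means were 74.7, 65.5, 91.5 and 89.5% in the same order. The tenth of microglia with the most such UMIs held 30.5 to 39.1% of them in each library, counted before thinning. Over all libraries, cluster 4 (described below) had 6757 of the 50314 microglia and 39.6% of these UMIs. Single genes differed: before thinning, Bst2 was found in 45.3 to 94.8% of microglia by library and Rsad2 in 0.492 to 14.1%.

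Different clusters held most microglia with and without the transgene, so a class sum compares mixtures. Most nTg and Clec7a-KO microglia were in clusters 3 and 6, led by the resting-state genes Crybb1 and P2ry12, or in cluster 7, led by Xist. Most microglia with the transgene were in cluster 0, led by Il1b and Dusp2, cluster 1, led by Gpnmb and Spp1, and, in SOD1G93A, cluster 4, led by Ifnb1 and Acod1. Clec7a is among the leading genes of cluster 4, so neither its size nor levels within it are compared between genotypes. No cluster had any of the 72 genes among its leading 10. Within cluster 3, the summed level of the 72 genes was 977 to 1293 CPM in nTg, 797 to 1260 in Clec7a-KO, 1374 to 2413 in SOD1G93A and 1264 to 1958 in SOD1G93A/Clec7a-KO. Within cluster 6 it was 691 to 946, 860 to 1137, 1248 to 2361 and 1349 to 2014 CPM. In cluster 6 all libraries with the transgene and at least 20 cells were above those of nTg. In cluster 3 this held but for SOD1G93A/Clec7a-KO_1, at 1264 CPM below nTg_1 at 1293. In cluster 0 the groups overlapped, with nTg_1 at 2022 CPM, Clec7a-KO at 1429 to 1734, SOD1G93A at 1458 to 2324 and SOD1G93A/Clec7a-KO at 1426 to 2454.

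Endothelial cells had the highest summed nTg level of the 4 classes tested, and a share of genes called at adjusted p under 0.05 near that of all genes. Of 48 genes tested, 1, Ifi207, was higher in SOD1G93A than in nTg (1.1% of all 13319 genes were higher) and in SOD1G93A/Clec7a-KO than in Clec7a-KO (0.878%), and none was lower. The median change was 0.21 and 0.063, with 10 and 9 genes at an unadjusted p under 0.05. Of all 13319 genes 845 and 1408 were at that unadjusted level, smaller shares than of the 48. DESeq2 called Ifi207 and Zbp1 higher in both, and 209 and 200 of all 13319 genes. Ifi207 was at 0.516, 0.170 and 0 CPM in nTg and at 1.89, 4.41 and 1.32 in SOD1G93A (log2 change 3.17, SE 0.70, adjusted p = 0.0406), and changed by 3.10 (SE 0.65, adjusted p = 0.032) without Clec7a. The first call was lost without any 1 of nTg_2, nTg_3, Clec7a-KO_2, Clec7a-KO_4, SOD1G93A_1, SOD1G93A_2, or SOD1G93A/Clec7a-KO_1 or _3 (adjusted p 0.0509 to 0.313), and with a linear term for library number. The second was lost without any 1 of Clec7a-KO_2, _3 or _4 or SOD1G93A/Clec7a-KO_1, _2 or _3 (0.0565 to 0.127). Without the 4 libraries numbered 1 to 4 neither was called (0.0566 and 0.165), while Zbp1 was in the first (log2 change 1.57, SE 0.29). Microglia markers moved along: their median level in endothelial cells was 0.399% of that in microglia in nTg and 3.25% in SOD1G93A, and Ifi207 itself was at 1.22 and 1.71% of its microglial level. The part of this in the Ifi207 change was not tested. Among genes with high endothelial levels, Bst2 was at 300, 192 and 248 CPM in nTg and at 286, 370 and 357 in SOD1G93A, Isg15 at 278, 200 and 231 against 261, 275 and 288, and Slfn5 at 741, 649 and 798 against 504, 746 and 896, all with overlapping groups. Ifi203 was at 71.9, 38.1 and 82.0 CPM in nTg and at 17.1, 44.2 and 39.6 in SOD1G93A (log2 change -0.92, SE 0.39) and was not called. SOD1G93A/Clec7a-KO against SOD1G93A called none of the 48 (0.00751% of all genes, 9 at an unadjusted p under 0.05), and Clec7a-KO against nTg none (0.0%, 0 at an unadjusted p under 0.05), with none by DESeq2 in either. At that unadjusted level were 893 and 254 of all 13319 genes.

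Whether the transgene effect differed between microglia and endothelial cells was tested in 1 model of both classes with the library as a block. Of 58 genes tested, the effect was more positive in microglia in 32 and more negative in 2, Irgm2 (-1.10, SE 0.16) and Gbp7 (-1.27, SE 0.23). Among all 16634 genes the shares were 16.4% and 10.5%. The median over the 58 was 1.55, against -0.0127 over all genes. The filter on low counts took the sums of both classes, so genes with few endothelial UMIs could enter through microglia. Oas1g, with 72 endothelial UMIs, and Ifi205, with 3, are examples. The effect on Bst2 was greater in microglia by 1.62 (SE 0.18), on Oasl2 by 3.49 (SE 0.39), on Slfn5 by 3.03 (SE 0.34), on Ifi27l2a by 2.55 (SE 0.30), on Zbp1 by 2.32 (SE 0.32) and on Oas1a by 2.75 (SE 0.40), with adjusted p between 5.9e-06 and 8.2e-05. Oasl2 shows the pattern in levels: it was at 107, 73.6 and 98.7 CPM in nTg endothelial cells and at 92.5, 96.7 and 112 in SOD1G93A, while in microglia it went from 1.39 to 2.81 CPM up to 13.1 to 35.5.

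**Figure D5:**
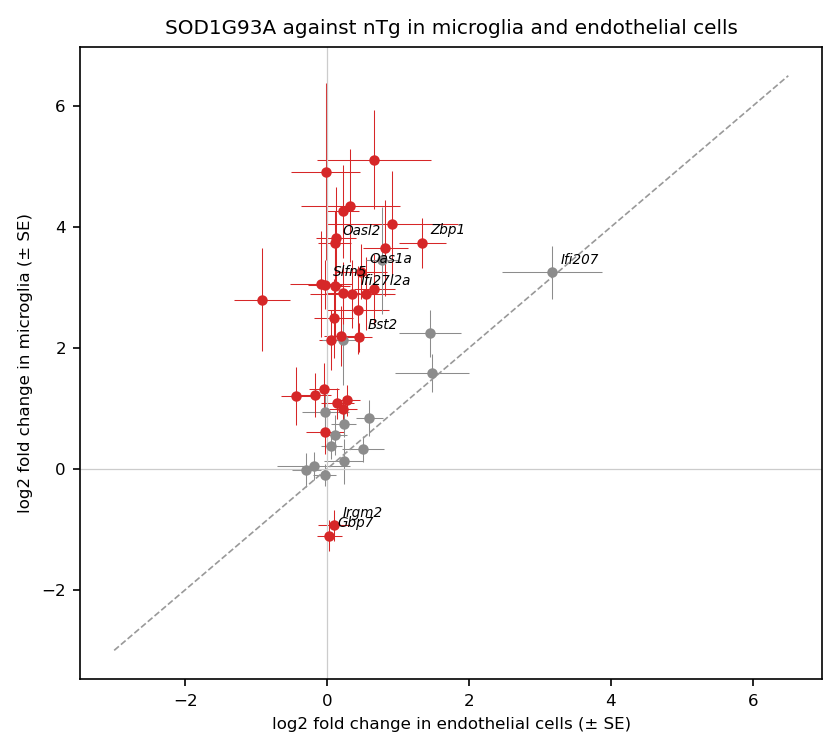
Change from nTg to SOD1G93A in endothelial cells (horizontal axis) and microglia (vertical axis), in log2 units, 1 point for each of the 47 genes tested in both classes. Bars are standard errors, the diagonal marks equal change, and the 32 genes in red are those whose difference between the classes was called. Gbp7 and Irgm2 lie below the diagonal, and Ifi207 lies close to it.

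Astrocytes, which had low resting levels, changed in most genes tested. In SOD1G93A astrocytes 25 of the 29 genes tested were higher and none lower (17.8% of all 12613 genes were higher), with a median change of 2.23. In SOD1G93A/Clec7a-KO against Clec7a-KO 19 were higher and none lower (18.1% of all), with a median of 1.54. Only 29 of the 72 genes passed the filter on low counts, in part through the group where they were high. Ifi204, for example, had 3 UMIs in nTg and 29 in SOD1G93A. A gene that passes in this way can hardly be called lower. DESeq2 called 24 and 19 higher, and 1984 and 2172 of all 12613 genes. The second count was 8 without SOD1G93A/Clec7a-KO_2 and 9 without the 4 libraries numbered 1 to 4, and SOD1G93A/Clec7a-KO_4 held 33 astrocytes. Gbp2, which is often used to mark reactive astrocytes, was at 2.53, 1.84 and 3.03 CPM in nTg and at 29.5, 45.0 and 30.6 in SOD1G93A (log2 change 3.77, SE 0.48, adjusted p = 1.7e-05). It was at 2.69, 5.06, 5.07 and 0.903 CPM in Clec7a-KO and at 13.3, 60.5, 19.6 and 13.7 in SOD1G93A/Clec7a-KO (3.00, SE 0.47). Neither pair of groups overlapped. Gbp7, which fell in microglia, was at 17.7, 12.2 and 17.3 CPM in nTg astrocytes and at 18.1, 57.7 and 58.0 in SOD1G93A (1.56, SE 0.36, adjusted p = 0.00288). In SOD1G93A/Clec7a-KO against Clec7a-KO, Gbp7 was not among the 19 astrocyte genes that DESeq2 called.

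Isg15 was at 7.87, 1.22 and 4.90 CPM in nTg astrocytes and at 19.3, 57.7 and 105 in SOD1G93A (log2 change 3.77, SE 0.55), and changed by 3.29 (SE 0.56) without Clec7a. Bst2 was at 25, 8.87 and 9.57 CPM in nTg and at 128, 188 and 144 in SOD1G93A (3.41, SE 0.41), and changed by 3.23 (SE 0.38) without Clec7a. Both were separate in both comparisons. Microglia markers moved along here too, with a median of 0.670% of their microglial level in nTg, 1.46% in Clec7a-KO, 4.55% in SOD1G93A and 13.3% in SOD1G93A/Clec7a-KO. Of the genes called higher, 3 of 25 and 4 of 19 were at or under 2 times that median relative to microglia (Ifi204, Slfn2, Ifi27l2a and, in the second, Gbp5), and the other called genes were above it. The highest of the 12 markers was at 71.3% of its microglial level in SOD1G93A astrocytes and 70.7% in SOD1G93A/Clec7a-KO, and 13 and 14 of the 29 genes tested were at or under that. These shares pool the libraries of a group. The summed level of the 12 markers was 1449 to 2786 CPM by library in SOD1G93A astrocytes and 1759 to 10020 in SOD1G93A/Clec7a-KO. The part of microglial RNA was not tested. Gbp2 went from 12% of its microglial level in nTg to 145% in SOD1G93A, Gbp3 from 34.6 to 234%, Gbp7 from 40.3 to 334%, Isg15 from 5.74 to 26.5% and Bst2 from 11.8 to 35.0%. For Gbp7 the microglial level, the base of this ratio, itself changed by -1.10 on the log2 scale. SOD1G93A/Clec7a-KO against SOD1G93A called none of the 29 (0.0159% of all genes). Of the 29, 7 had an unadjusted p under 0.05, as did 963 of all 12613 genes. Without the filter on low counts this comparison called 5 of 61 (3 higher and 2 lower). The share of all genes called in that unfiltered fit is not given here. In 2 other alternatives it called 1, in opposite directions. Without SOD1G93A/Clec7a-KO_3 it was Ifi27l2a, higher (3.48, SE 0.65, adjusted p = 0.0247), and without the libraries numbered 1 to 4 it was Gbp7, lower (-2.54, adjusted p = 0.0448). Clec7a-KO against nTg called none (0.0%, 0 at an unadjusted p under 0.05, against 234 of all 12613 genes), and DESeq2 called none in either.

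Ependymal cells, which line the central canal, also changed. Of 31 tested, 16 were higher in SOD1G93A than in nTg and none lower (0.926% of all 15329 genes were higher), with a median change of 1.82. Against Clec7a-KO, 9 were higher in SOD1G93A/Clec7a-KO and none lower (1.16% of all), with a median of 0.95. Only 31 of the 72 genes passed the filter on low counts, in part through the group where they were high. Gbp2b, for example, had 0 UMIs in nTg and 33 in SOD1G93A. A gene that passes in this way can hardly be called lower. With doublets kept, 43 were tested and the counts were 29 and 25, and the shares of all genes in that fit are not given here. The first count was 8 without nTg_1, 10 without nTg_2 or nTg_3, 9 without SOD1G93A_2 and 10 without SOD1G93A_3. The second was 5 without Clec7a-KO_2 or Clec7a-KO_3 and 4 without SOD1G93A/Clec7a-KO_2. Xist was above the Y-linked Ddx3y in nTg_1, nTg_3, Clec7a-KO_3 and SOD1G93A/Clec7a-KO_4 and in no SOD1G93A library, and with a term for this the first count was 2 (in microglia 35 higher and 1 lower, with the calls of Isg15, Isg20, Irgm2 and Slfn1 among those lost). The Ifi207 call in SOD1G93A endothelial cells was lost with it too. SOD1G93A_1 held 108 ependymal cells and SOD1G93A/Clec7a-KO_4 held 28. Bst2 was at 11.2, 10.3 and 8.58 CPM in nTg and at 64.2, 52.6 and 50.2 in SOD1G93A (log2 change 2.42, SE 0.38, adjusted p = 0.00202), and was at 35.3, 11.7, 12.5 and 13.9 CPM in Clec7a-KO and at 43.2, 114, 73.2 and 33.8 in SOD1G93A/Clec7a-KO (2.11, SE 0.33). The second pair of groups overlapped.

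Ifi27 was at 17.2, 11.4 and 17.3 CPM in nTg ependymal cells and at 50.8, 65.1 and 63.0 in SOD1G93A (log2 change 1.99, SE 0.31). Ifit3 was at 2.92, 7.51 and 4.41 CPM in nTg and at 60.2, 17.3 and 27.0 in SOD1G93A (2.65, SE 0.45). In both the groups were separate, and for Ifit3 SOD1G93A_1 was here the highest library. With the Xist term the calls of Ifi27, Ifit3, Bst2, Gbp2 and Gbp7 in this comparison were all lost. Gbp2 was at 26.0, 37.5 and 32.0 CPM in nTg and at 50.8, 64.0 and 64.2 in SOD1G93A (0.94, SE 0.17, adjusted p = 0.00523), a call lost without nTg_1 or SOD1G93A_2 (0.0507 to 0.0615). Gbp7 was at 11.7, 9.38 and 12.8 CPM in nTg and at 36.1, 20.0 and 31.3 in SOD1G93A (1.30, SE 0.28, adjusted p = 0.0241), a call lost without any 1 of the 3 nTg libraries, SOD1G93A_1 or SOD1G93A_3 (0.0681 to 0.183). It was also lost with a linear term for library number. Gbp2b had no UMI in nTg and 33 in SOD1G93A, at least 39.5-fold higher against a floor of 3 UMIs over the group (the 95% counting interval of the ratio, which also counts the error of the 33, begins at 30.4), and was at 0, 2.50 and 3.46 CPM in the SOD1G93A libraries. This call (adjusted p = 0.0347) was lost with DESeq2, with the replicate block, and without any 1 of the 3 nTg libraries, SOD1G93A_2, SOD1G93A_3 or SOD1G93A/Clec7a-KO_4 (0.0687 to 0.209). The median of the microglia markers was 0.334% of their microglial level in nTg and 2.42% in SOD1G93A. Of the 16 and 9 genes called, 3 each (Ifi204, Slfn2 and Ifi27l2a) were at or under 2 times the markers' median relative to microglia. The highest of the 12 markers was at 268% of its microglial level in SOD1G93A and at 90.5% in nTg, and 29 of 30 genes in SOD1G93A were at or under it. The part of microglial RNA in these was not tested. SOD1G93A/Clec7a-KO against SOD1G93A called none of the 31 (0.0196% of all genes, 2 at an unadjusted p under 0.05), and Clec7a-KO against nTg none (0.0261%, 5 at an unadjusted p under 0.05), with none by DESeq2 in either. At that unadjusted level were 1238 and 284 of all 15329 genes.

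A list of 60 other genes of the interferon pathway was compared in the same fits. In microglia 48 were tested, of which 15 were higher and 6 lower in SOD1G93A than in nTg (19.9% and 13.2% of all genes, the lower calls at a share close to this). In SOD1G93A/Clec7a-KO against Clec7a-KO 16 were higher and 8 lower (25.7% and 21% of all genes), the latter a smaller share than of all genes. Of the 10 ligand genes only Ifnb1 had enough counts to test: it was at 7.02, 5.82 and 5.16 CPM in nTg and at 0.291, 78.9 and 72 in SOD1G93A (log2 change 3.06, SE 1.63, adjusted p = 0.165). SOD1G93A_1 lay below the nTg libraries and the other SOD1G93A libraries far above them. Among the receptors Ifnar1 rose by 1.00 (SE 0.14) and Ifngr1, a chain of the interferon gamma receptor, fell by 0.82 (SE 0.18). Among the signalling genes Stat3 fell by 0.49 (SE 0.14), while Irf9 (0.0079) and Stat2 (0.20) were not called. Irf7, the factor that drives later waves of interferon, was at 4.98, 5.04 and 5.08 CPM in nTg and at 19.9, 35.9 and 36.3 in SOD1G93A (2.61, SE 0.56).

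Of 13 sensors and adaptors tested, 3 were higher and 4 lower. The 3 were Dhx58, Adar and Eif2ak2, by 1.26, 0.77 and 0.98, and the 4 were the DNA sensor Cgas (-0.46), its adaptor Tmem173 (-0.68), Tlr3 (-0.75) and the adaptor Myd88 (-0.92). None of the negative regulators was called, and of 12 other induced genes 8 were higher. Ifitm3, which blocks viral entry, was at 24.0, 22.1 and 25.7 CPM in nTg and at 101, 273 and 256 in SOD1G93A (log2 change 3.14, SE 0.42, adjusted p = 8.3e-05). B2m, the light chain of MHC class I, rose by 1.43 (SE 0.29). In the same 2 comparisons the list had 2 and 1 genes higher of 44 tested in endothelial cells (1.1% and 0.878% of all genes) and 5 and 6 of 42 in ependymal cells (0.926% and 1.16%). In astrocytes 18 and 20 of 41 were higher (17.8% and 18.1% of all genes), and 1 was lower, in SOD1G93A. Neither comparison of Clec7a called any of the list in any of the 4 classes.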

How the data were processed

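The authors deposited unnormalized UMI counts per gene and cell barcode for each library, made with Cell Ranger 3.0.2 per the file headers, and per the submitters' processing notes aligned to mm10. Strand use and the rule for calling cells are not given in the sources used here. No column of another sample was present (0).

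Barcodes with under 500 genes or 1000 UMIs or over 15% mitochondrial UMIs were removed, as were those with the highest Scrublet scores, 0.8% per 1000 barcodes. Cells were clustered (scanpy 1.11.5, 2000 variable genes, 30 components, 15 neighbours, Leiden resolution 1.0) and clusters named from marker lists. Counts were summed per library and class, and microglia, endothelial cells, ependymal cells and astrocytes, each with 20 cells or more in every library, were fitted with edgeR 4.0.16 (TMM, filterByExpr, quasi-likelihood test, all 4 groups in the fit, Benjamini-Hochberg over all genes tested). Oligodendrocyte precursors and mural cells also had that many cells and were not fitted. Standard errors are the log2 change divided by the root of the F statistic. CPM are these sums per 1000000 UMIs of the TMM-adjusted totals. Class sums of the 72 genes are unscaled. Alternatives used DESeq2 1.42.0 and those given at the end. The test was checked on simulated data. Counting intervals and floors cover counting error only.

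Genes named with values were the 2 of each family with the highest mean microglial CPM, single genes with a mean of at least 5 CPM, and the called genes with the largest changes, 3 in each direction (all where 5 or fewer), and the 6 lowest p of the class difference. Other genes, among them those of the pathway list, Ifi27 and Ifit3 in ependymal cells and the genes of the sequence list, were chosen after values were seen. The members and lists were chosen with earlier results of these data known.

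Replicate numbers occur in all groups, but the deviations of same-numbered libraries from their group means correlated between -0.269 and 0.537 over genes, so the numbers were not taken to pair libraries. The value of 1 gene of the pathway list is not reported here.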

Additional observations from a re-analysis of the deposited data

Results flagged for a closer look

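In 80 groups of 4 libraries examined, 5 values stood apart by Dixon's criterion from the remaining 3 of their group, where chance alone gives about 1 in 20. Slfn1 in microglia was at 0.365 CPM in Clec7a-KO_1 and at 0 in the other 3 Clec7a-KO libraries. Slfn5 in microglia was at 74.0 CPM in SOD1G93A/Clec7a-KO_2 and at 36.7 to 42.7 in the others of that group. Trim30c in microglia was at 1.16 CPM in SOD1G93A/Clec7a-KO_2 and at 0.615 to 0.699 in the others. The summed level of the 72 genes in ependymal cells was 369 CPM in Clec7a-KO_1 and 224 to 249 in the others, and in astrocytes it was 244 CPM in Clec7a-KO_4 and 289 to 296 in the others.

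The effect of the transgene differed between microglia and endothelial cells by the interaction test of edgeR in the 6 genes with the lowest p among the 58 tested. The difference, microglia minus endothelial cells on the log2 scale, was 1.62 for Bst2, 3.49 for Oasl2, 3.03 for Slfn5, 2.55 for Ifi27l2a, 2.32 for Zbp1 and 2.75 for Oas1a. Each of the 6 was higher in all 3 SOD1G93A libraries than in all 3 nTg libraries in microglia. The 6 were picked by p from these same libraries, so this describes them and is no further test. The share of all genes separate in this way is not given here.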

How the results depend on the processing

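No result reversed its direction. Apart from the 4.59% and the DESeq2 counts of all genes given above, the shares of all genes called in these alternatives are not given. Their counts are not read against such shares. In microglia, leaving out 1 library at a time gave 32 to 45 calls for SOD1G93A against nTg (median change 1.78 to 2.49), 31 to 39 for SOD1G93A/Clec7a-KO against Clec7a-KO (median 0.987 to 1.66, the highest without SOD1G93A/Clec7a-KO_1), 0 to 2 for SOD1G93A/Clec7a-KO against SOD1G93A (median -0.638 to -0.0752, both calls without SOD1G93A_1), and 0 for Clec7a-KO against nTg (median 0.144 to 0.399) and for the interaction (median -0.982 to -0.364). The third comparison had 1 call with DESeq2, 1 without the filter on low counts and 7 with libraries 5 to 16 alone, where the median of the second was 1.94. With the replicate block the first 2 comparisons had 41 and 36 calls in microglia, 25 and 20 in astrocytes, 16 and 8 in ependymal cells, and 1 and 1 in endothelial cells, and no comparison of Clec7a gained one.

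In astrocytes, leaving out 1 library gave 18 to 27, 8 to 22 and 0 to 1 calls in the first 3 comparisons. The second had 31 without the filter, 12 with its own groups alone and 9 with libraries 5 to 16, and the third had 5 without the filter and 1 with libraries 5 to 16. In ependymal cells the ranges were 8 to 18 and 4 to 11 for the first 2. Without the filter the second had 19, the third 2 and Clec7a-KO against nTg 3. With doublets kept the first 2 had 29 and 25, and with the Xist term the first had 2. In endothelial cells both ranges were 0 to 1. Both had 2 calls with DESeq2, 4 without the filter, 0 with their own groups alone and 2 with a term for libraries 1 to 4. The first had 0 with the Xist term, the second 2 with a linear term for library number and 0 with libraries 5 to 16. Without the filter the third had 2 and Clec7a-KO against nTg 1. The class difference had 24 to 37 calls when 1 library was left out.

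Of 134 calls of named genes, 86 were kept in every alternative run, and over 3276 alternatives 3083 kept and 193 lost the call. Alternatives in which a gene had too few counts to test are not among the 3276. The share of microglia with at least 5 UMIs was, from nTg to SOD1G93A/Clec7a-KO as ordered above, 74.7, 65.5, 91.5 and 89.5% unthinned and 35.7, 34.6, 71.8 and 63.9% at 4000 UMIs. With 1 to 3 bases between both GAAA the element core was in the promoters of 9.91% of all genes and 71.2% of the members. The causes of these changes were not tested. Fits were not run without member-led clusters (there were none), with doublets kept in endothelial cells, or at 5% mitochondrial UMIs in ependymal cells and astrocytes, where a library had under 20 cells.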

Other observations

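Ifi202b, an Ifi20x gene whose level differs between mouse strains, had 1591 UMIs in the microglia of SOD1G93A/Clec7a-KO_1, 154 in those of Clec7a-KO_2 and 22 in those of SOD1G93A/Clec7a-KO_2, and 0 to 3 in each of the other 11 libraries. The same libraries held it in other classes: in SOD1G93A/Clec7a-KO_1 there were 31 UMIs in astrocytes, 14 in endothelial cells and 13 in border-associated macrophages, and in Clec7a-KO_2 there were 91 in endothelial cells and 28 in border-associated macrophages. Replicates with the same strain label thus differed in this gene, and no comparison of groups was made from it.

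Slfn4, a Schlafen gene of myeloid cells, had 131 UMIs in the 54 neutrophils of Clec7a-KO_2 (358 CPM) and 11 in the 26 of Clec7a-KO_1 (90.1 CPM). The other libraries held at most 7 neutrophils each, and among those with any the level was 0 to 1221 CPM.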
